A study of Arabidopsis thaliana with 6 samples.

Results

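The aquaporin family of *Arabidopsis thaliana*, the thale cress, was followed in messenger RNA from whole seedlings of the nup50c mutant and of wild type. Its 32 genes were chosen by locus identifier from the PIP, TIP, NIP and SIP subfamilies: 5 PIP1, 8 PIP2, 10 TIP, 6 NIP and 3 SIP genes, out of 30865 genes in the count table. The nup50c group held 3 libraries of mutant seedlings, and it was set against 3 libraries of the wild-type accession Col-0. All seedlings were 9 days old, had been grown on half-strength MS medium with 1% sucrose and received no treatment. The sources used here do not say what kind of mutation it is. The design text speaks of triplicates, so the number at the end of each title was taken as the replicate. In the mutant titles that number follows a hyphen, as allele numbers often do, and if it names alleles, the nup50c means and SDs are taken over 3 alleles with 1 library each. No label says that the libraries of a group came from separate cultures. The p-values therefore measure the spread between these libraries, which may be technical.

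Aquaporins are membrane channels that form tetramers and let water or small uncharged solutes pass along their gradients. Plasma membrane intrinsic proteins (PIPs) set much of the water permeability of plant cells, and PIP1 proteins usually reach the membrane together with PIP2 partners. Tonoplast intrinsic proteins (TIPs) sit in the membrane of the vacuole, where they carry water and, in some isoforms, urea, ammonia or hydrogen peroxide. Nodulin26-like proteins (NIPs) transport metalloids such as boric acid and arsenite, and the small basic proteins (SIPs) lie in the endoplasmic reticulum. Gene names are written with a hyphen, as UniProt writes the proteins, in place of the semicolon of the plant nomenclature.

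The transcript of the mutated gene, *NUP50C* (AT4G11790), averaged 11.3 ± 2.00 CPM in nup50c and 31.7 ± 3.53 CPM in wild type (SD, n = 3 each; log2 fold change -1.49, edgeR adjusted p = 0.00293). CPM are counts scaled to the depth of each library, with factors between libraries from the TMM method of edgeR. The libraries held 33273007 to 36984121 counts in nup50c and 35116694 to 39574236 counts in wild type. On the second principal component of the log2 CPM of the tested genes, nup50c replicate 3 lay at -83.6 and the other libraries between -4.89 and 31.5. Leaf photosynthesis markers summed to 34628 to 37969 CPM in nup50c and 33986 to 36662 CPM in wild type. Root endodermis and stele markers summed to 102 to 109 CPM in nup50c and 102 to 113 CPM in wild type, so the libraries held both shoot and root RNA. In bulk RNA of this kind, fewer cells of a type and less RNA per cell cannot be told apart.

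The sequences bearing on the counts and on the genes with the clearest separation are given here. *PIP2-2* (chr2:15613368-15615022, minus strand) and *PIP2-3* (chr2:15617635-15619155, plus strand) are neighbours, with 2612 bases and no annotated gene between them, and their coding sequences were identical at 94.8% of positions, the closest pair of the family. The stretch of 60 bases in which they differ most, positions 414 to 473 of both coding sequences, is shown because reads from such stretches tell the copies apart. Capitals mark the 10 differing bases (RefSeq, TAIR10.1).
PIP2-2: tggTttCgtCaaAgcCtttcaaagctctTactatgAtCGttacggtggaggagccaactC
PIP2-3: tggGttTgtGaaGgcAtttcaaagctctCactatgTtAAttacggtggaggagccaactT
Of the stretches of 150 bases in these transcripts, the length of a read, 93 of 1056 in *PIP2-2* and 93 of 1071 in *PIP2-3* were found unchanged in the other copy. None of the other 30 transcripts shared such a stretch with a member of the family. Reads from the shared stretches could be split between the copies or left out in counting, and the longest identical run of their coding sequences was 242 bases.

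The 250 bases before the annotated start of *TIP1-1* (chr2:15445044-15445293, plus strand) and of *TIP2-1* (chr3:5505110-5505359, plus strand), both TAIR10.1, are shown because these are the members whose transcripts separated the groups with the smallest p. Capitals mark ACGT, the core of G-boxes and of abscisic acid response elements, a motif that was added after the sequences had been seen.
TIP1-1: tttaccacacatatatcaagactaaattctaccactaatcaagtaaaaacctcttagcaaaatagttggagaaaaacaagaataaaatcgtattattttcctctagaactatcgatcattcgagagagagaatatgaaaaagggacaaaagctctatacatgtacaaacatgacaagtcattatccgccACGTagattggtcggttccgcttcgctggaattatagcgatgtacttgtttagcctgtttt
TIP2-1: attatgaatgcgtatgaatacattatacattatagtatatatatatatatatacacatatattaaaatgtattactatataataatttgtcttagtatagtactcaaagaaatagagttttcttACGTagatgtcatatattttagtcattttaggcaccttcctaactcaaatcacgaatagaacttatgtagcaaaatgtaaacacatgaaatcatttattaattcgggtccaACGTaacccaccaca
ACGT lay 61 to 58 bases before the start of *TIP1-1*, and 126 to 123 and 15 to 12 bases before that of *TIP2-1*. It was found in 12 of the 32 family windows and in 44.1% of 27443 windows of the same length before protein-coding genes. The full G-box CACGTG was in 0 of the 32 windows and 6.49% of all windows, and the evening element AAATATCT, a clock motif, in 0 of 32 and 4.79%. The CCA1-binding site AAAAATCT was in 1 of 32, that of *PIP2-3*, and 6.69% of all windows. The light-related GATAAG was in 4 of 32 and 12.3%, and the TATA box TATAAA in 13 of 32 and 47.3%. Both strands were searched, and G-box matches would also count as ACGT matches.

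No aquaporin transcript passed the test between nup50c and wild-type seedlings, and for 21 of the 26 tested genes the libraries of the groups overlapped. Of all genes tested, 11.7% lay higher in nup50c without overlap and 11.6% lower. The smallest p-values were those of the tonoplast genes *TIP1-1* and *TIP2-1*, each with an estimate of 1.22-fold. Of the 32 genes, 26 were tested, 3 were listed at 0 in every library, 1 had too few counts and 2 are not listed in the count table used here. The quasi-likelihood test of edgeR, adjusted by Benjamini-Hochberg over 21158 genes, called 0 of the 26 at an adjusted p under 0.05. Of all genes tested it called 2.28%, with 1.12% higher and 1.17% lower in nup50c. At an unadjusted p under 0.05 were 4 members, 2 with estimates above 0 (*TIP1-1* and *TIP2-1*) and 2 below (*PIP2-5* and *NIP6-1*), where 16.6% of all genes passed, 8.66% higher and 7.98% lower. DESeq2 called 2 members higher and 0 lower, against 5.81% of its genes, 3.01% higher and 2.8% lower. Limma on log2(FPKM + 1) called 0 members, against 2.46% of its genes, 1.2% higher and 1.26% lower. FPKM are the deposited values scaled to transcript length and library depth, which allow levels to be compared between genes.

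The 26 log2 fold changes of nup50c over wild type ran from -0.44 for *NIP6-1* to 0.42 for *TIP2-3*, with 15 above 0, 11 below 0 and a median of 0.014, where the median of all genes tested was -0.00284. Their 95% intervals lay within -1 and 1 for all 26 genes and within -0.5 and 0.5 for 20 of them, so a change of 2-fold lay outside the interval of each tested member. In CPM, the 3 nup50c libraries lay above the 3 wild-type libraries for 4 members (*TIP1-1*, *TIP2-1*, *PIP2-3* and *SIP1-2*), and 11.7% of all genes did so. They lay below them for 1 member, *PIP2-5*, as did 11.6% of all genes.

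**Figure D1:**
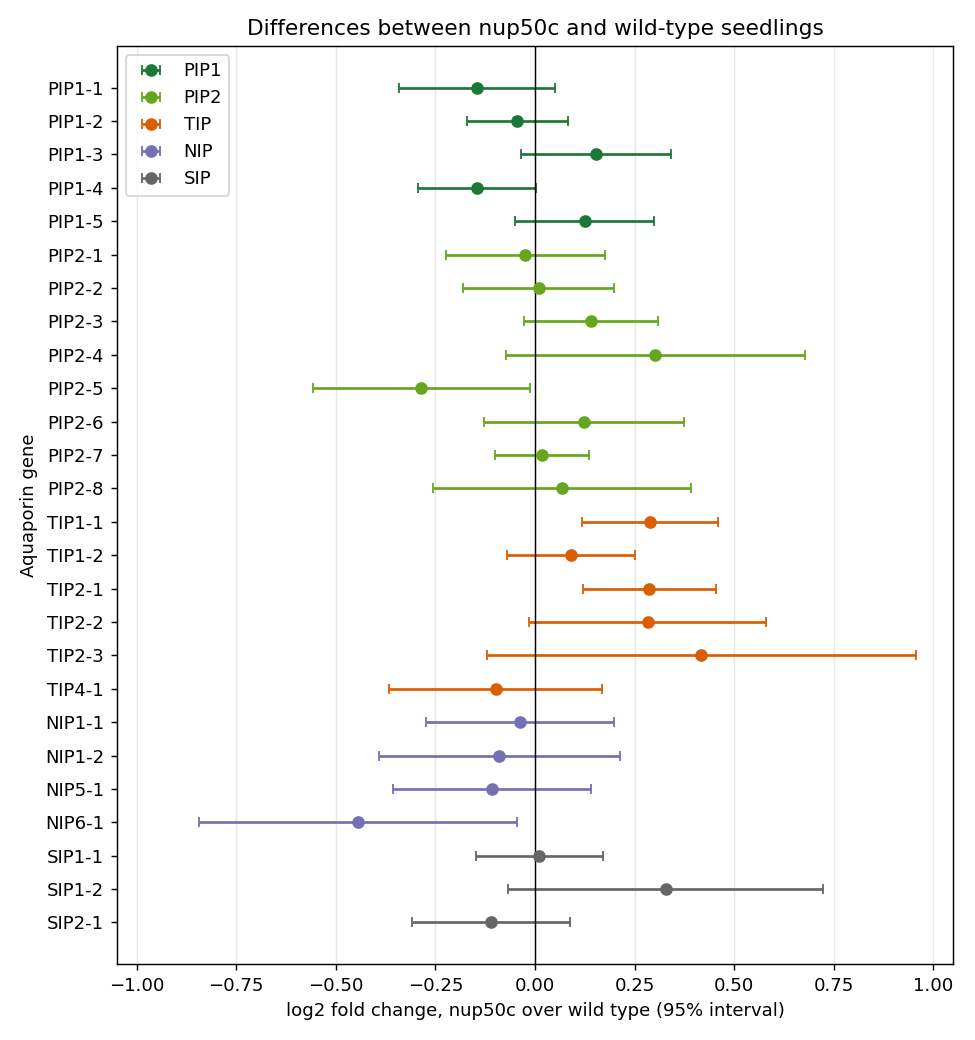
Log2 fold changes (x axis, nup50c over wild type) of the 26 tested aquaporin genes (y axis), by subfamily; points are the edgeR estimates and bars their 95% intervals. The intervals of TIP1-1 and TIP2-1 lie above 0, those of PIP2-5 and NIP6-1 below 0, and no gene passed the adjusted test.

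*TIP1-1* (AT2G36830), gamma-TIP, is a major water and urea channel of the vacuole of vegetative tissue and was measured at 731, 728 and 790.1 CPM in the nup50c libraries, against 659.8, 549 and 631 CPM in the wild-type libraries. All nup50c libraries lay above all wild-type libraries. The log2 fold change was 0.29 (SE 0.076, 95% interval 0.12 to 0.46), with an edgeR adjusted p of 0.0926. By DESeq2 its adjusted p was 0.00222, in limma on FPKM it was 0.0593, and in edgeR over the 19800 genes that reached 10 counts in every library it was 0.0427. The last setting called 3.9% of its genes, 1.99% higher and 1.91% lower.

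*TIP2-1* (AT3G16240), delta-TIP, a water and ammonia channel of the vacuole of shoots, was measured at 809, 824 and 943 CPM in the nup50c libraries, against 722, 659 and 731 CPM in the wild-type libraries. Here too the groups did not overlap, and nup50c replicate 3 was the highest library. Its log2 fold change was 0.29 (SE 0.074, 95% interval 0.12 to 0.45; edgeR adjusted p = 0.0883). The adjusted p was 0.00194 by DESeq2, 0.0423 over the genes with 10 counts in every library and 0.0536 by limma on FPKM. *TIP2-1* shares 120 bases on the other strand with AT3G16250 and 445 with the long noncoding AT3G03265. AT3G16250 averaged 101 CPM in nup50c and 70.5 CPM in wild type (log2 fold change 0.52, edgeR adjusted p = 0.0219), a call lost without nup50c replicate 1 or 2 or wild-type replicate 1 or 2 (highest adjusted p = 0.11). The libraries were made with a strand-specific protocol, but the sources used here do not say if reads were counted by strand, and the part of AT3G16250 in the *TIP2-1* value was not tested.

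*TIP1-2* (AT3G26520), a close relative of *TIP1-1* induced by salt, had the highest level of the family at 831, 845 and 936 FPKM in the nup50c libraries, against 863, 787 and 776 FPKM in the wild-type libraries. The groups overlapped (log2 fold change 0.091, 95% interval -0.069 to 0.25, edgeR adjusted p = 0.59). *TIP2-2* (AT4G17340), found mainly in roots, gave 156, 182 and 220.4 CPM in the nup50c libraries, against 167, 138 and 154 CPM in the wild-type libraries. Its estimate of 0.28 was close to those of *TIP1-1* and *TIP2-1*, but nup50c replicate 1 lay within the wild-type range and the interval reached from -0.016 to 0.58 (edgeR adjusted p = 0.33). *TIP2-3* (AT5G47450), a root isoform with ammonia transport, had 22.8, 29.6 and 28.6 CPM in the nup50c libraries, against 26.5, 13.9 and 20.3 CPM in the wild-type libraries, and its groups overlapped (log2 fold change 0.42, 95% interval -0.12 to 0.96). *TIP4-1* (AT2G25810) had a log2 fold change of -0.099 and likewise overlapping groups. Of 10 leaf photosynthesis markers, 2 rose in nup50c by edgeR, where 1.12% of all genes did, *CP12-2*, a regulator of the Calvin cycle (log2 fold change 0.52, adjusted p = 0.0128), and *RBCS2B*, a small subunit of Rubisco (log2 fold change 0.44, adjusted p = 0.0183). Estimates were above 0 for 8 of the 10, with a median of 0.18, and below 0 for *RCA* (-0.11) and *RBCS1A* (-0.035). At an unadjusted p under 0.05, which 16.6% of all genes passed, were also *RBCS1B*, *GAPA*, *GAPB*, *PRK* and *SBPASE*. Leaving out wild-type replicate 1 ended the *CP12-2* call (adjusted p = 0.0698), and that of *RBCS2B* was lost without nup50c replicate 1 or 2 or wild-type replicate 1 or 2 (highest adjusted p = 0.11). The part of the leaf markers in the TIP values was not tested.

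**Figure D2:**
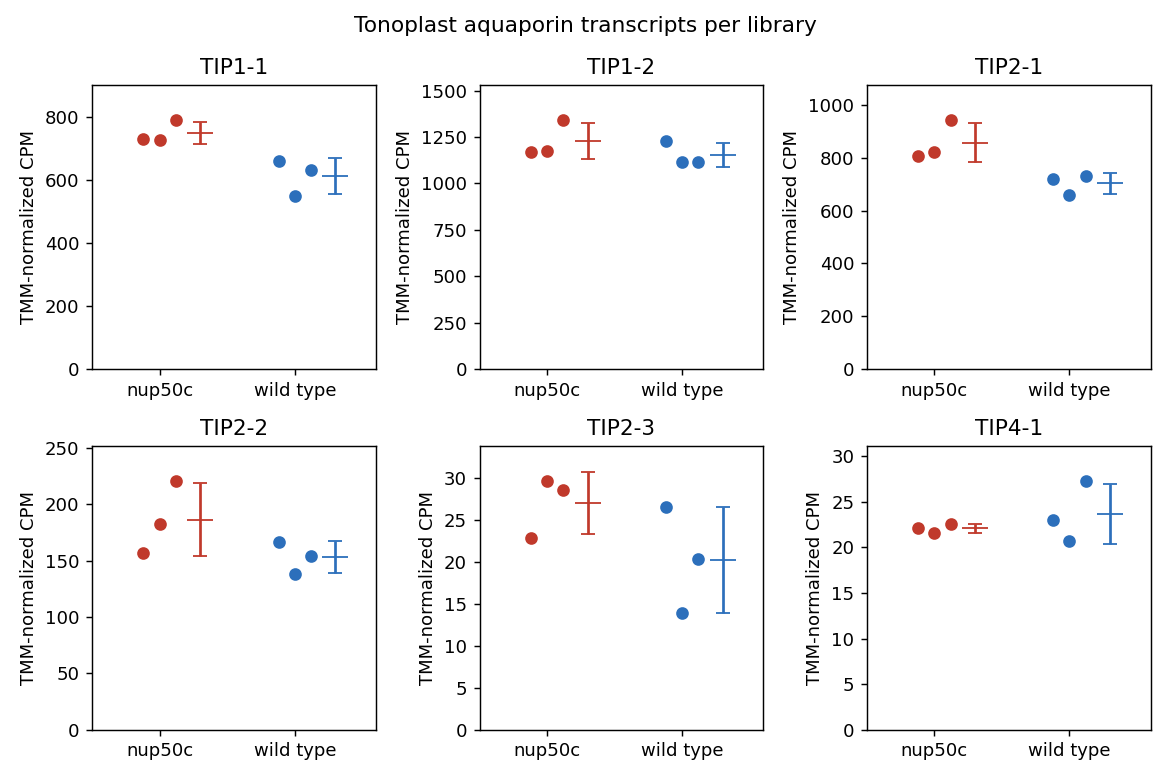
TMM-normalized CPM (y axis, from 0) of the 6 tested TIP genes in each library, nup50c in red and wild type in blue; dots are libraries, and the lines beside them give the mean and SD (n = 3). The groups are separate for TIP1-1 and TIP2-1 and overlap for the other 4 genes.

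Summed over the subfamily, the TIP transcripts came to 2908, 2961 and 3344 summed CPM in the nup50c libraries, against 2825, 2495 and 2678 in the wild-type libraries, a ratio of 1.15 between the group means. All nup50c sums lay above all wild-type sums, and the ratio was 1.10 without nup50c replicate 3, the library that stood apart. This sum includes *TIP1-1* (mean 750 CPM in nup50c, 613 CPM in wild type) and *TIP2-1* (859 CPM in nup50c, 704 CPM in wild type). It is therefore not a result separate from theirs, and the groups overlapped for each of the other tested TIP genes. The PIP1 transcripts came to 1849, 1862 and 2008 summed CPM in the nup50c libraries, against 1997, 1811 and 1970.2 in the wild-type libraries (ratio 0.990), and the PIP2 transcripts to 1661, 1779 and 1892 summed CPM in the nup50c libraries, against 1832, 1635 and 1788 in the wild-type libraries (ratio 1.01). NIP transcripts had a ratio of 0.907 and SIP transcripts one of 0.992. In all 4 of these subfamilies the groups overlapped. TIP genes made up 48.0% to 49.4% of the family's summed FPKM in nup50c and 44.9% to 45.7% in wild type. For the PIP genes the share was 47.7% to 49.0% in nup50c and 50.9% to 51.8% in wild type. Shares of the same total depend on each other, and the summed FPKM of the PIP genes overlapped between the groups (ratio 1.02). No test was made on these sums, since the members were chosen with earlier results known.

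**Figure D3:**
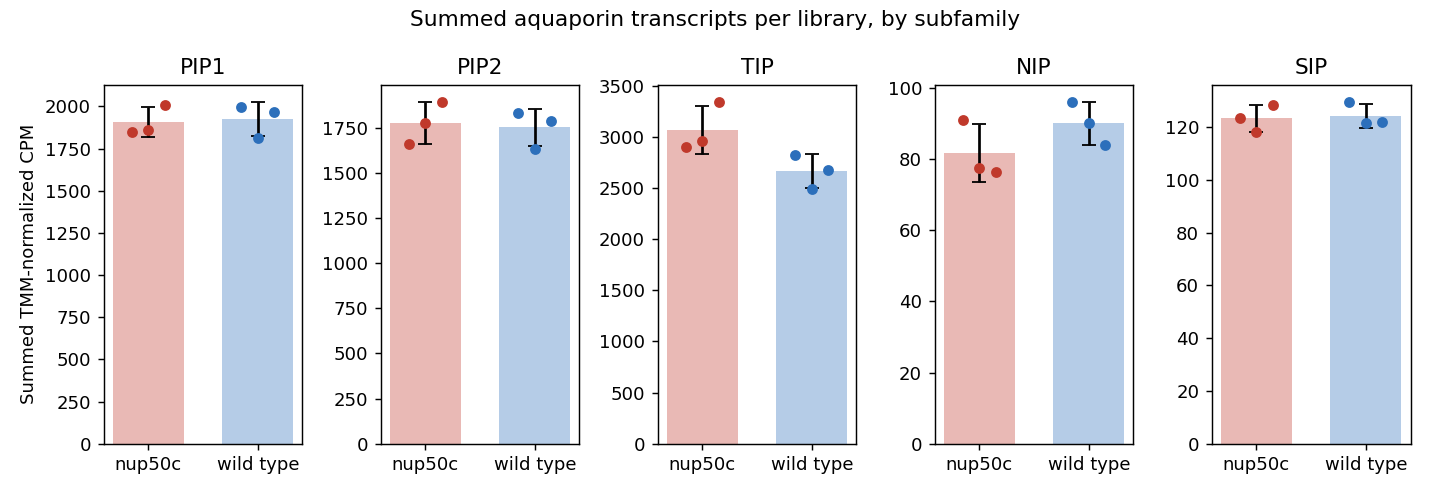
Summed TMM-normalized CPM (y axis, from 0, own scale in each panel) of the PIP1, PIP2, TIP, NIP and SIP genes; dots are libraries, bars the mean and whiskers the SD (n = 3), with nup50c at the left in each panel. The TIP sums of nup50c, 2908 to 3344, lie above those of wild type, 2495 to 2825, and the other subfamilies overlap.

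None of the 5 PIP1 genes passed the test, and the groups overlapped for each of them. *PIP1-2* (AT2G45960), a main water channel of leaves and roots that also conducts carbon dioxide, was the highest of them at 468, 459 and 486 FPKM in the nup50c libraries, against 493, 469.5 and 476 FPKM in the wild-type libraries. Wild-type replicate 1 was the highest library and nup50c replicate 2 the lowest, with the others between (log2 fold change -0.044, 95% interval -0.17 to 0.082, edgeR adjusted p = 0.77). *PIP1-1* (AT3G61430), the member closest to it in coding sequence at 87.6% identity, had a log2 fold change of -0.15, and *PIP1-4* (AT4G00430) one of -0.15. *PIP1-4* was measured at 238, 226 and 227 CPM in the nup50c libraries, against 266, 234 and 263 CPM in the wild-type libraries, with nup50c replicate 1 just above wild-type replicate 2. *PIP1-3* (AT1G01620) and *PIP1-5* (AT4G23400) had estimates above 0, at 0.15 and 0.12. The edgeR adjusted p of the 5 PIP1 genes lay between 0.31 for *PIP1-4* and 0.77 for *PIP1-2*.

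Among the PIP2 genes, which form the more active water channels, *PIP2-1* and *PIP2-7* were the most abundant. *PIP2-1* (AT3G53420), a regulated channel of roots, veins and guard cells, gave 319.6, 360.5 and 372 FPKM in the nup50c libraries, against 384, 316 and 358 FPKM in the wild-type libraries. The libraries of both groups covered nearly the same range (log2 fold change -0.025, 95% interval -0.22 to 0.17). *PIP2-7* (AT4G35100) gave 288, 297 and 287 FPKM in the nup50c libraries, against 282, 279 and 292 FPKM in the wild-type libraries, with the narrowest interval of the family around its log2 fold change of 0.017 (-0.099 to 0.13).

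The neighbours *PIP2-2* (AT2G37170) and *PIP2-3* (AT2G37180, also RD28, for responsive to desiccation) stood far apart in level. *PIP2-2* averaged 239 ± 26.1 FPKM in nup50c and 226 ± 12.5 FPKM in wild type, and *PIP2-3* averaged 48.8 ± 1.58 FPKM in nup50c and 43.8 ± 3.31 FPKM in wild type (SD, n = 3 each). *PIP2-3* was measured at 65.01, 66.2 and 63.8 CPM in the nup50c libraries, against 63.8, 54.9 and 58.3 CPM in the wild-type libraries. In CPM its nup50c libraries lay just above the wild-type libraries, while in FPKM the groups overlapped (log2 fold change 0.14, edgeR adjusted p = 0.40). Fitted as 1 gene, the pair had a log2 fold change of 0.031 (edgeR adjusted p = 0.90). This fit joins reads split between the copies shown above, but not reads that were counted for neither copy.

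*PIP2-5* (AT3G54820) was the 1 member with every nup50c library below every wild-type library. It was measured at 14.5, 14.5 and 12.9 CPM in the nup50c libraries, against 15.9, 18.7 and 16.3 CPM in the wild-type libraries. The log2 fold change was -0.29 (SE 0.12, 95% interval -0.56 to -0.013, edgeR adjusted p = 0.28). *PIP2-4* (AT5G60660), a root isoform, had a log2 fold change of 0.30 with overlapping groups and a wide interval (-0.074 to 0.68). For *PIP2-6* (AT2G39010) the value of 0.12 rested on nup50c replicate 3, at 237 CPM against 176 to 189 CPM in the other 5 libraries, and it was -0.025 without that library. *PIP2-8* (AT2G16850) had a log2 fold change of 0.068.

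All 4 tested NIP genes had log2 fold changes below 0, and 0 of them passed the test. *NIP1-1* (AT4G19030), which takes up arsenite in roots, was the highest at 24.3, 20.8 and 20.3 FPKM in the nup50c libraries, against 21.5, 22.1 and 22.1 FPKM in the wild-type libraries (log2 fold change -0.039, edgeR adjusted p = 0.91). Its wild-type libraries were almost equal, and the nup50c libraries lay on both sides of them. *NIP5-1* (AT4G10380), the boric acid channel needed for boron uptake by roots, gave 15.1, 13.8 and 11.8 FPKM in the nup50c libraries, against 15.4, 15.1 and 12.9 FPKM in the wild-type libraries (log2 fold change -0.11, 95% interval -0.36 to 0.14). *NIP6-1* (AT1G80760), its closest relative, moves boric acid towards young leaves and gave 9.61, 7.04 and 7.34 FPKM in the nup50c libraries, against 13.0, 9.97 and 9.36 FPKM in the wild-type libraries. With a log2 fold change of -0.44 (SE 0.18, 95% interval -0.84 to -0.046, edgeR adjusted p = 0.25) it had the lowest estimate of the family, though nup50c replicate 1 lay above wild-type replicate 3. *NIP1-2* (AT4G18910), which carries aluminium malate in roots, had a log2 fold change of -0.089.

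None of the SIP genes passed the test either. *SIP1-1* (AT3G04090), a water channel of the endoplasmic reticulum, was measured at 53.7, 52.8 and 53.5 FPKM in the nup50c libraries, against 55.4, 48.4 and 53.2 FPKM in the wild-type libraries. Its log2 fold change was 0.011 (95% interval -0.15 to 0.17). *SIP1-2* (AT5G18290), the gene with the lowest level among the tested members, had 6.42, 5.53 and 6.82 FPKM in the nup50c libraries, against 5.33, 5.26 and 4.23 FPKM in the wild-type libraries. The groups did not overlap in FPKM or CPM, but the interval of the log2 fold change of 0.33 included 0 (-0.068 to 0.72, edgeR adjusted p = 0.40). *SIP1-2* shares 444 bases on the other strand with AT5G18300, which averaged 1.76 CPM in nup50c and 0.947 CPM in wild type (edgeR adjusted p = 0.39). *SIP1-2* also shares 209 bases with the long noncoding AT5G02885, for which no counts are listed. The part of these genes in the *SIP1-2* value was not tested. *SIP2-1* (AT3G56950) had 31.1, 29.4 and 32.7 FPKM in the nup50c libraries, against 34.0, 35.8 and 30.6 FPKM in the wild-type libraries, with overlapping groups (log2 fold change -0.11, edgeR adjusted p = 0.60). It shares 147 bases on the other strand with AT3G56940, which averaged 979 CPM in nup50c and 1306 CPM in wild type (edgeR adjusted p = 0.0116), a call lost without nup50c replicate 2 or wild-type replicate 1 (highest adjusted p = 0.0698). The part of those reads in the *SIP2-1* value was not tested.

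The remaining 6 members were at or near 0 in seedlings. *TIP1-3* (AT4G01470), known from pollen, *TIP3-1* (AT1G73190), the alpha-TIP of seeds, and *NIP7-1* (AT3G06100), known from anthers, were listed at 0 counts in all 6 libraries. *TIP3-2* (AT1G17810), the beta-TIP of seeds, and *TIP5-1* (AT3G47440), a pollen isoform, are listed only in the FPKM table, at 0 throughout. *NIP2-1* (AT2G34390), a lactic acid channel induced by low oxygen, had 29 and 33 counts in wild-type replicates 2 and 3 and was listed at 0 in the other 4 libraries. Its FPKM were 0, 0.924 and 0 in nup50c, against 0.413, 1.19 and 0.964 in wild type, so that nup50c replicate 2 and wild-type replicate 1 had an FPKM above 0 beside a count of 0. *NIP7-1* likewise had 0.442 FPKM in wild-type replicate 3. Across all genes and libraries, 1001 counts of 0 stand beside an FPKM above 0, and only 40 of 185190 counts are 1. A count of 0 therefore need not mean that the transcript was absent, and the cause was not tested. Seed maturation markers summed to 0 CPM in all nup50c libraries and to at most 2.41 CPM in wild type, and flower and pollen markers to at most 0.644 CPM in nup50c and 0 in wild type.

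Levels within the family spanned a wide range. In wild type the mean FPKM of the tested members ran over 164-fold, from 4.94 FPKM for *SIP1-2* to 809 FPKM for *TIP1-2*. *TIP1-2*, *TIP2-1*, *TIP1-1*, *PIP1-2* and *PIP2-1* led the order in nup50c, and the same 5 genes led in wild type. In nup50c *TIP1-1*, at 555 ± 18.3 FPKM, stood above *PIP1-2*, at 471 ± 13.7 FPKM, with no overlap (SD, n = 3 each). In wild type *TIP1-1* averaged 449 ± 40.6 FPKM and *PIP1-2* 479 ± 12.3 FPKM, and their libraries overlapped. Counting all 28 members with any FPKM above 0, neighbours in the order overlapped in 12 of the steps in nup50c and 13 in wild type. In nup50c these steps joined *PIP1-3* and *PIP2-2*, then *TIP2-2*, *PIP1-5*, *PIP2-6* and *PIP1-4*, then *PIP2-4*, *NIP1-1*, *TIP2-3*, *PIP2-8* and *TIP4-1*, then *NIP1-2*, *NIP6-1*, *PIP2-5* and *SIP1-2*, and last *NIP2-1* and *NIP7-1*.

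**Figure D4:**
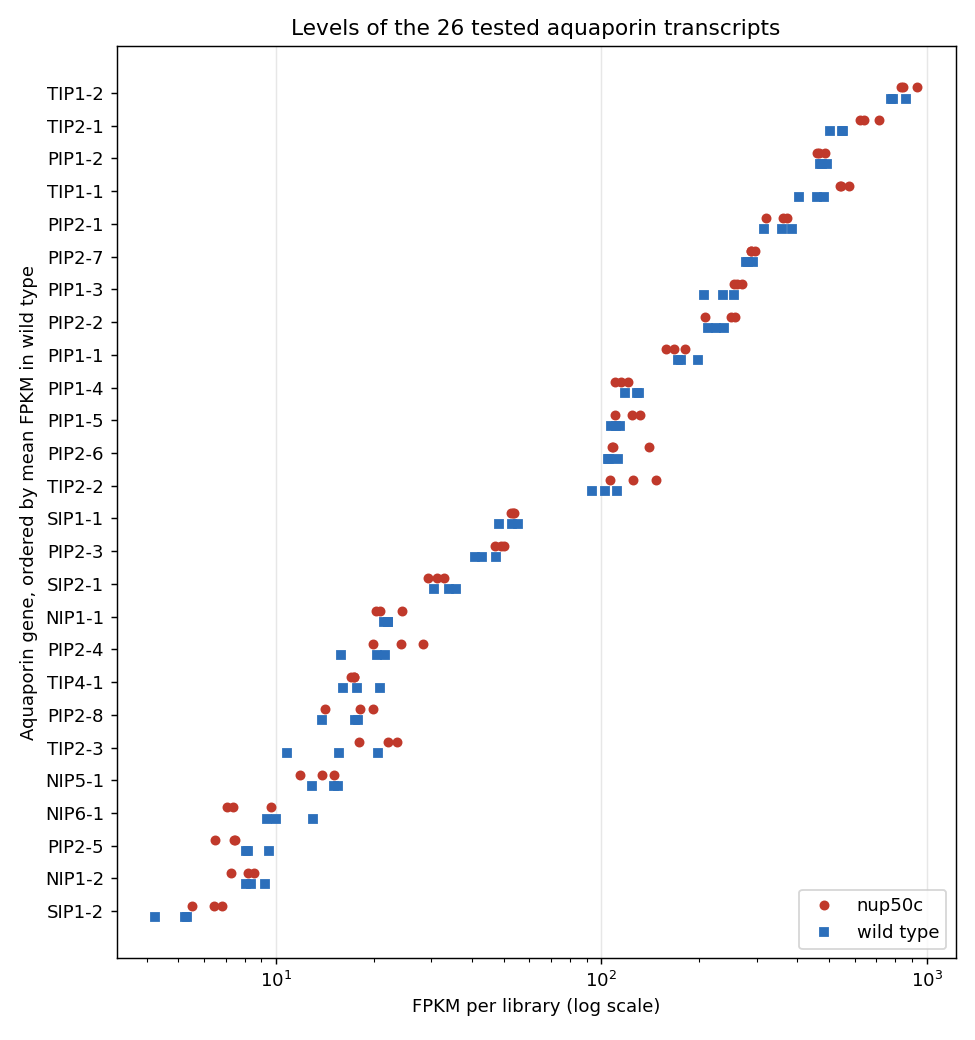
FPKM of the 26 tested aquaporin genes in each library (x axis, log scale), ordered by the wild-type mean; nup50c libraries are red circles drawn above the blue squares of wild type. The libraries of a gene lie close together beside the 164-fold range between genes, and TIP1-1 and TIP2-1 are the abundant genes whose groups are separate.

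Gene structure follows the subfamilies in the TAIR10.1 annotation. All 13 PIP genes have 4 coding exons and coding lengths of 837 to 876 bases. The TIP genes have 1 to 3 coding exons and 750 to 807 bases, the NIP genes 4 or 5 exons and 828 to 918 bases, and the SIP genes 3 exons and 714 to 732 bases. *TIP1-1* and *TIP2-1*, the members with the smallest p, are not each other's closest relatives. *TIP1-1* is closest to *TIP1-2* (81.1% coding identity, log2 fold change 0.091) and *TIP2-1* to *TIP2-2* (71.1%, log2 fold change 0.28). *TIP1-1* spans chr2:15445294-15446621 with 2 coding exons, and *TIP2-1* spans chr3:5505360-5507050 with 3, both on the plus strand. Another annotated gene overlaps 8 of the 32 members, in each case on the other strand.

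Other transport genes of the vacuole membrane were set beside the TIP genes. Of 11 such genes, 2 rose in nup50c by edgeR and 0 fell, where 1.12% of all genes rose and 1.17% fell. Estimates were above 0 for 9 of them, and their median log2 fold change was 0.097, against -0.00284 for all genes tested. *AVP1* (AT1G15690), the vacuolar proton pyrophosphatase, averaged 1438 ± 40.1 CPM in nup50c and 1096 ± 91.4 CPM in wild type (SD, n = 3 each). Its groups did not overlap (log2 fold change 0.39, SE 0.068, edgeR adjusted p = 0.0226). *TST1* (AT1G20840, also TMT1), a sugar importer of the vacuole, averaged 125 ± 7.55 CPM in nup50c and 92.1 ± 4.40 CPM in wild type, also without overlap (log2 fold change 0.44, SE 0.070, edgeR adjusted p = 0.0182). The *AVP1* call was lost without nup50c replicate 1 or 2 or wild-type replicate 1 or 2 (highest adjusted p = 0.11), and that of *TST1* without nup50c replicate 2 or wild-type replicate 1 or 2 (highest adjusted p = 0.0986). *TIP1-1* and *TIP2-1* were not shown to differ from these genes in their response, since that difference was not tested.

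**Figure D5:**
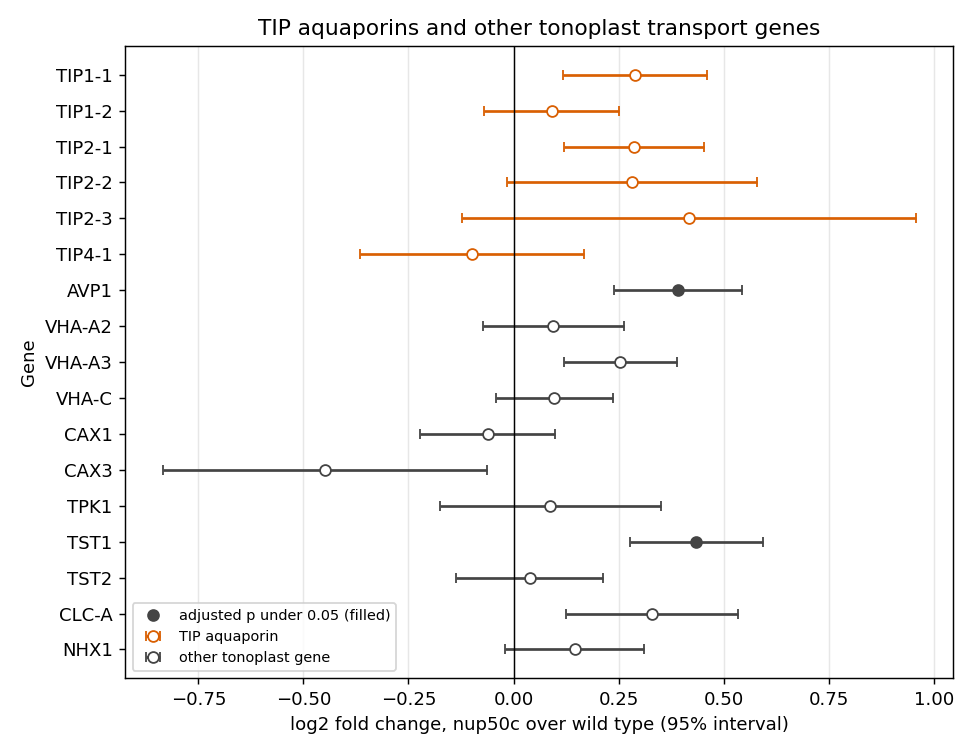
Log2 fold changes (x axis, nup50c over wild type, with 95% intervals) of the 6 tested TIP genes (orange) and 11 other tonoplast transport genes (grey); filled points passed the edgeR test. AVP1 and TST1 are filled, at 0.39 and 0.44, and TIP1-1 and TIP2-1 are open, at 0.29.

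Genes that act on or beside the plasma membrane channels gave 0 calls by edgeR. Among 11 genes of PIP trafficking and phosphorylation, 7 had estimates above 0 and the median was 0.066. The smallest p was that of *RMA1* (AT4G03510), a membrane-anchored ubiquitin ligase whose pepper relative acts on PIP2 channels (log2 fold change 0.38, edgeR adjusted p = 0.0862, DESeq2 adjusted p = 0.0405). For the 5 proton pumps of the plasma membrane the median was 0.028, and *AHA4* (AT3G47950) had the smallest p (log2 fold change -0.50, edgeR adjusted p = 0.17). Of the 3 boron exporters, *BOR2* (AT3G62270) had the smallest p (log2 fold change -0.23, edgeR adjusted p = 0.30). At an unadjusted p under 0.05, which 16.6% of all genes passed, were 3 of the 11 trafficking genes (*RMA1* and the kinase genes *OST1* and *QSK1*), 2 of the 5 pumps (*AHA1* and *AHA4*) and 1 of the 3 exporters (*BOR2*). DESeq2 called *RMA1* and 0 of the pumps and exporters.

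The morning clock genes *CCA1* and *LHY*, set beside these values because the sources used here do not give the hour of harvest, averaged 25.7 ± 1.89 CPM in nup50c and 73.0 ± 9.28 CPM in wild type for *CCA1* and 38.1 ± 1.20 CPM in nup50c and 115 ± 22.3 CPM in wild type for *LHY* (SD, n = 3 each). Both fell in nup50c by edgeR (*CCA1* log2 fold change -1.50, adjusted p = 0.000833, and *LHY* -1.60, adjusted p = 0.00208). Their part in the TIP values was not tested, and unequal harvest hours cannot be told apart from the genotype.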

How the data were processed

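Strand-specific mRNA libraries were made from about 50 mg of whole seedlings, per the labels' protocols, and read as paired ends of 150 nt, per the design text. The authors deposited whole-number counts per gene and, in a second table, FPKM, without saying which transcript length or total they divided by. HISAT2 2.0.4, HTSeq 0.6.1p1 and TAIR10 are named, with no role, per the submitters' processing notes. Members were matched by locus (30 of 32 in the counts, 32 in the FPKM). Positions and sequences come from RefSeq TAIR10.1, using each gene's first listed isoform.

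The test of the counts used edgeR 4.0.16 under R 4.3.3 (filterByExpr with at least 10 counts and 15 in total, TMM, robust quasi-likelihood F test, no covariate, Benjamini-Hochberg over 21158 genes, biological coefficient of variation 22.0%). Intervals are 95% from the moderated test. Alternatives used DESeq2 1.42.0 and limma 3.58.1 (pseudocounts 1 and 0.1, at least 0.5 FPKM in 3 libraries). The scripts were tested on simulated data. The members, lists and tests were chosen with earlier results of these data known. Members were described in full if called, among the 3 most abundant of PIP, TIP or NIP, a SIP, or without overlap between groups. *PIP1-4*, *TIP2-2*, *TIP2-3* and *NIP6-1* got their values in every library after these were seen, as did overlapping genes. Of each other list, called genes and the smallest p are named. *VHA-A3*, *CLC-A*, *NHX1*, *CAX1*, *CAX3*, *EXPA18*, *OST1*, *QSK1*, *AHA1* and the uncalled leaf markers named were added after their values were seen. One repeated FPKM row, not a member, was dropped.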

Additional observations from a re-analysis of the deposited data

How the results depend on the processing

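The deviations of same-numbered nup50c and wild-type libraries from their group means correlated at -0.031, -0.12 and -0.098. Those of differently numbered libraries correlated at -0.023 to 0.12. Deviations from a mean of 3 libraries depend on each other, so these values cannot settle whether the numbers 1 to 3 pair the libraries. No label gives the numbers a meaning. With the replicate block 12 genes were higher and 19 lower in nup50c, against 236 and 247 without it, with 0 tonoplast transport genes, 0 leaf markers and 0 aquaporins called. DESeq2 called 662 higher and 616 lower, and edgeR over genes with at least 10 counts in all libraries 394 higher and 378 lower. Both called 2 aquaporins higher, *TIP1-1* and *TIP2-1*, and 1 root hair gene. DESeq2 also called 1 of 11 trafficking genes, 4 of 11 tonoplast genes and 6 of 10 leaf genes higher, where it called 3.01% of all its genes higher. The edgeR setting with at least 10 counts called 3 of 11 tonoplast genes higher, where it called 1.99% of its genes higher. Leaving out single libraries gave 43 to 172 genes higher, 65 to 266 lower, 0 to 2 tonoplast genes, 0 to 2 leaf genes and 0 aquaporins. The adjusted p of *TIP1-1* then ran from 0.14 to 0.24 and that of *TIP2-1* from 0.098 to 0.28. Of 390 member values under alternatives, 373 kept direction and side of the threshold, 4 passed it and 13 changed sign. The sign changes belong to 7 genes near 0 when a library was left out: *PIP2-1* (-0.10 to 0.041), *PIP2-2* (-0.055 to 0.084), *PIP2-6* (-0.025 to 0.20), *PIP2-8* (-0.042 to 0.19), *TIP4-1* (-0.18 to 0.016), *NIP1-1* (-0.14 to 0.0089) and *SIP1-1* (-0.043 to 0.051). The TIP ratio ran from 1.10 to 1.19 without single libraries and was 1.17 in FPKM. Where counts moved, the cause was not tested, beyond the fewer genes or libraries in the settings that drop them.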

Other observations

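None of the 7 tested endodermis and stele markers, 7 root hair markers and 3 root meristem markers was called by edgeR. At an unadjusted p under 0.05, which 16.6% of all genes passed, were 2 root hair markers, *EXPA18*, an expansin of root hairs (log2 fold change -0.46), and *RHD6*, a regulator of root hairs (log2 fold change 1.36). *RHD6* was measured at 5.31, 2.58 and 3.34 CPM in the nup50c libraries, against 1.54, 1.16 and 1.68 CPM in the wild-type libraries, with a DESeq2 adjusted p of 0.0389. Root hair markers summed to 61.3 to 66.2 CPM in nup50c and 53.7 to 67.4 CPM in wild type, and meristem markers to 3.46 to 4.70 CPM in nup50c and 3.04 to 5.82 CPM in wild type. Besides *AVP1* and *TST1*, the genes without overlap in CPM among the 11 tonoplast genes were *VHA-A3*, *CLC-A* and *NHX1*, all higher in nup50c. Of all genes tested, 11.7% lay higher in nup50c without overlap. *VHA-A3* is a subunit of the vacuolar proton ATPase (log2 fold change 0.25, edgeR adjusted p = 0.0673). *CLC-A* is the vacuolar nitrate exchanger (log2 fold change 0.33, edgeR adjusted p = 0.11). *NHX1* is a vacuolar sodium and potassium exchanger (log2 fold change 0.15, edgeR adjusted p = 0.37). The tonoplast genes at an unadjusted p under 0.05 were *AVP1*, *TST1*, *VHA-A3*, *CLC-A* and, with an estimate below 0, *CAX3*.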
